A study of Mus musculus with 6 samples.

Results

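Interferon response genes are the genes that cells switch on when interferons reach them, and 35 of them were followed here in mouse muscle treated with click or with EDC. The genes were taken by symbol from a list of known interferon targets, which was drawn up with earlier results of these data known. All 35 symbols were found among the 52110 named lines of the count table, each on a single line. The study sequenced RNA from muscle of wild-type mice of the strain labelled c57b6l in 6 libraries. Click was the agent in 3 of them and EDC in 3, with no untreated group. The labels give no dose, time, age or sex, and do not describe either agent further, so a gene called lower here is lower in click muscle than in EDC muscle. The series design counts 3 mice per group, and each library was taken as 1 animal. Values for a group are listed for its replicates 1, 2 and 3 in turn.

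Type I interferons act through the receptor of Ifnar1 and Ifnar2, whose kinases activate Stat2. A complex that holds Stat2 and Irf9 then binds a DNA element known as the ISRE and switches on antiviral genes. Interferon-gamma, made mostly by T and NK cells, acts through the receptor of Ifngr1 and Ifngr2 and on genes with an element known as GAS. Its targets include guanylate-binding proteins, immunity-related GTPases and the machinery that loads peptides on MHC class I. The targets of both overlap. Of the 35 genes, 22 were set down as type I targets and 12 as interferon-gamma targets, and Irf1, which answers to both, was kept apart.

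Many of the promoters hold the letters of the ISRE. RefSeq promoter windows (GRCm38.p6, from 250 bases before to 50 after a start) were at hand for 28 of the 35 genes. The ISRE core GAAANNGAAA was searched on both strands. It stood in 17 of the 28 windows (60.71%), against 3.99% of 27025 genes with a window. The share was 10 of 17 for type I targets and 7 of 10 for interferon-gamma targets, so the core stood in windows of both classes. The GAS core TTCNNNGAA, which reads the same on both strands, stood in 3 of 17 type I and 4 of 10 interferon-gamma windows, against 9.55% of all genes. A match is a string of letters, not a shown binding site. The windows below are shown because they set the ISRE core of 6 type I targets beside that of 5 interferon-gamma targets, with the core in capitals, each read 5′ to 3′ on the strand of its gene. Where cores overlap, as in the run of 22 capitals before Isg15, the capitals cover them all.
Isg15: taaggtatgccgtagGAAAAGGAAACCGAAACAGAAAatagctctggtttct
Oas1a: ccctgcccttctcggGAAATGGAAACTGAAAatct
Oas3: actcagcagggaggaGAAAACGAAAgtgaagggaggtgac
Ifit1: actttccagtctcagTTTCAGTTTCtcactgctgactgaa
Bst2: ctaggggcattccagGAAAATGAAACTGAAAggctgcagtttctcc
Rsad2: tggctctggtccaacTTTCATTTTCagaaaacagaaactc
Gbp2: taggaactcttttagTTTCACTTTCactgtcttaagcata
Gbp7: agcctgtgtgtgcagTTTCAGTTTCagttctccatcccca
Igtp: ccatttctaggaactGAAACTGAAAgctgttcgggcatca
Irgm1: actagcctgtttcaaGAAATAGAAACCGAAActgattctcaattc
B2m: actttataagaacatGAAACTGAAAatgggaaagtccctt
On the plus strand lie the windows of Ifit1 (chr19:34640789-34640828), Gbp2 (chr3:142620589-142620628), Gbp7 (chr3:142530268-142530307), Igtp (chr11:58199507-58199546) and B2m (chr2:122147533-122147572). On the minus strand lie those of Isg15 (chr4:156200860-156200911), Oas1a (chr5:120907526-120907560), Oas3 (chr5:120777710-120777749), Bst2 (chr8:71537572-71537617), Rsad2 (chr12:26456548-26456587) and Irgm1 (chr11:48871421-48871465). The ISRE core begins 20 bases before the start of Oas1a and 78 before that of Isg15, and 34 bases before that of Igtp. Irf1 had no ISRE core in its windows and a GAS core that begins 90 bases before a start, at chr11:53769909-53769947 on the plus strand, in capitals here.
Irf1: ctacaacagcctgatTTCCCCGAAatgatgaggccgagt

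Libraries held 34472421 to 39305779 reads. Transcripts of muscle fibres dominated them. The 6 muscle markers Acta1, Ckm, Myh4, Tnnt3, Tnni2 and Mylpf summed to 74120 to 165900 CPM (counts of named reads scaled to a common library size with TMM factors), which fits the tissue label, and all 6 lay higher in click (median 0.55 on the log2 scale, none at an unadjusted edgeR p under 0.05). Xist was read in the first replicate of both groups, and the Y-linked Ddx3y in the other 4 libraries, so each group mixed the sexes alike. Mitochondrial genes took 18.9% to 30.2% of the reads in click and 14.8% to 17.8% in EDC.

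The 35 genes together took 25266, 11594 and 39755 reads in click and 39005, 37647 and 65471 reads in EDC. Click replicate 2 thus held the least and EDC replicate 3 the most, and click replicate 3 lay above EDC replicates 1 and 2 at similar depths, so the groups overlapped. B2m, the light chain of MHC class I, made up 41.2% to 53.9% of these reads. Every member had reads in every library, and 32 of the 35 had at least 10 reads in click replicate 2, where the levels were lowest. All 35 passed the filter on low counts.

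Type I targets lay lower in click muscle, and interferon-gamma targets went both ways. In click, each of the 22 type I targets had a negative log2 fold change (median -0.72), while 5 of the 12 interferon-gamma targets did and their median was 0.21. The interferon-gamma median turned to -0.21 when only library totals were used for scaling, where the median of all genes was -0.45, and to -0.23 without click replicate 3, so its direction is not settled. Over all 15797 genes tested the median was 0.02 and 48.7% were lower. No member passed the edgeR threshold (adjusted p under 0.05, over all genes tested), which 0.00633% of all genes passed, so this threshold separates few genes of any kind with 3 animals per group. The log2 fold change was smaller than its own SE in 12 of the 35 members, 4 of them type I and 7 interferon-gamma targets. At an unadjusted edgeR p under 0.05, 3 of 35 members were lower (8.57%) and 0 were higher, where 8.0% and 7.22% of all genes were, so the members' share was near the background. DESeq2 called 2 members lower, Oas1a and Oasl2, and 2.28% of all genes lower. By limma-voom 0 members passed the adjusted threshold, and 0 of all genes did. In bulk muscle, fewer cells of a type and less RNA per cell cannot be told apart.

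**Figure D1:**
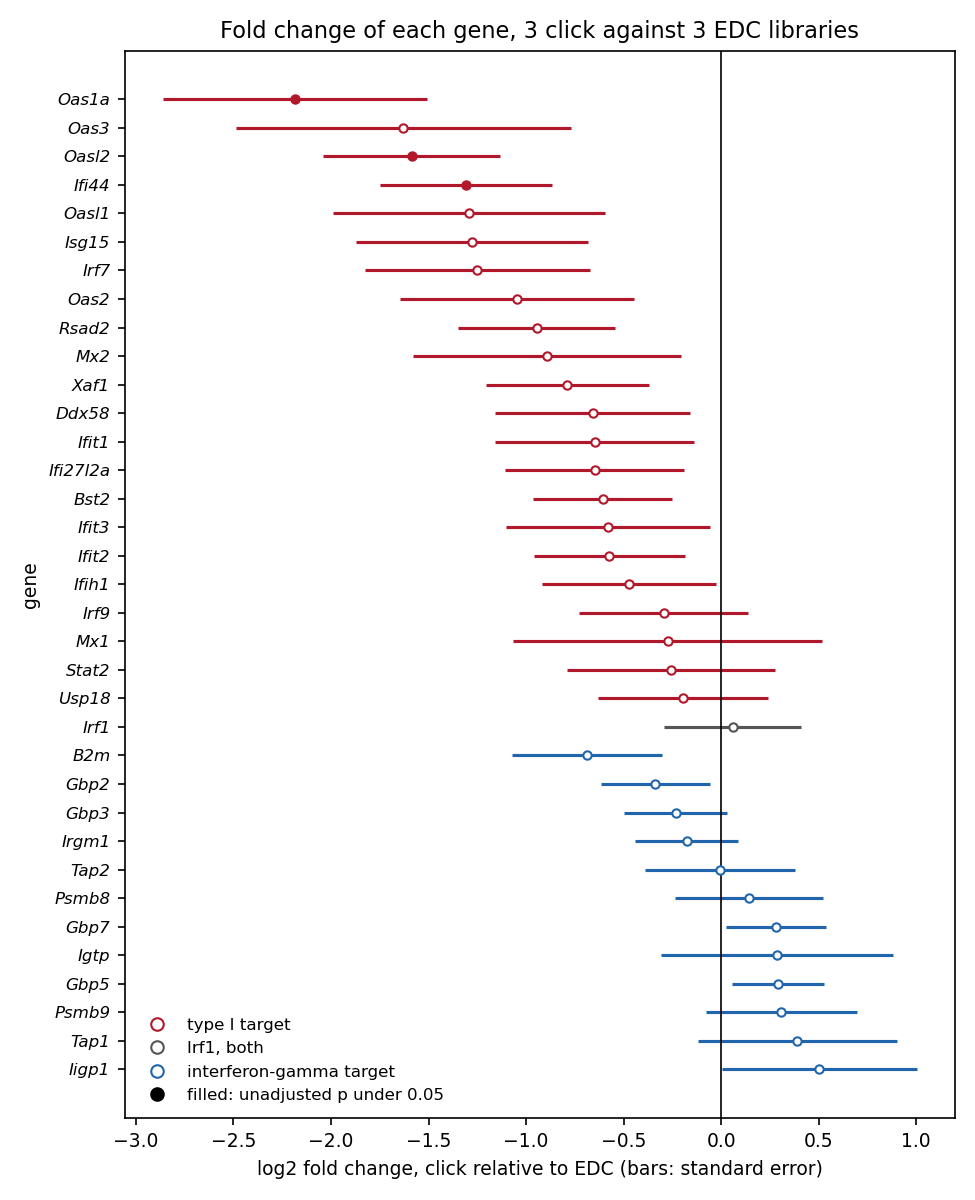
Log2 fold change of each of the 35 genes, click relative to EDC, from the edgeR fit, with bars of 1 standard error (3 libraries per group); colour gives the class and filled points have an unadjusted p under 0.05. All 22 type I targets lie left of 0, from -2.19 for Oas1a to -0.20 for Usp18, and the 12 interferon-gamma targets lie between -0.69 and 0.50.

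The oligoadenylate synthetase family held the 3 largest differences of the 35 genes. The active synthetases of this family sense double-stranded RNA and make the short oligoadenylates that activate the RNA-cutting enzyme RNase L. All 5 family members were lower, with a median of -1.58. They lie on chromosome 5 in the GENCODE M21 annotation of GRCm38, the build called mm10.

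Oas1a (ENSMUSG00000052776.10, chr5:120896256-120907521, minus strand) stood at 4.85, 0.801 and 5.92 CPM in click and at 10.8, 18.2 and 23.9 CPM in EDC. Every click library lay below every EDC library. The log2 fold change was -2.19 (SE 0.68), with an unadjusted edgeR p of 0.0146 and an adjusted p of 0.298. Oas1a shares 57.57% of its 50-base words with transcripts of its neighbours Oas1g and Oas1b, so the counting could move reads between them. Its value is uncertain for that reason. Oas1g, the closest copy, stood at 1.70, 0.328 and 1.01 CPM in click and at 3.30, 5.7 and 8.64 in EDC (log2 fold change -2.53, SE 0.64, edgeR adjusted p = 0.298). Oas1b, whose product is known in C57BL/6 as a truncated protein, was at 0.03 (SE 0.64) on the log2 scale.

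Oasl2 (ENSMUSG00000029561.17, chr5:114896936-114912234, plus strand) encodes an OAS-like protein with ubiquitin-like domains. It stood at 11.2, 5.10 and 13.0 CPM in click and at 18.9, 24.1 and 45.2 CPM in EDC. Again the groups did not overlap. The log2 fold change was -1.58 (SE 0.45), with an unadjusted edgeR p of 0.0102 and an adjusted p of 0.298. The unadjusted p of Oas1a and of Oasl2 stayed under 0.05 in all 16 alternative settings, at most 0.0469 and 0.0327. The adjusted p of both ranged up to 0.691.

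The other 3 family members overlapped between groups. Oas3, the largest synthetase, stood at 1.81, 0.291 and 3.47 CPM in click and at 2.47, 4.57 and 10.3 in EDC (log2 fold change -1.63, SE 0.86, edgeR adjusted p = 0.386). Oasl1, a brake on the translation of Irf7, stood at 1.34, 0.401 and 2.25 CPM against 2.06, 2.08 and 5.71 (-1.29, SE 0.70). Oas2 stood at 5.76, 1.42 and 6.73 CPM against 6.62, 6.97 and 15.2 (-1.05, SE 0.60). In all 3, click replicate 2 was the lowest library and EDC replicate 3 the highest, and click replicate 3 reached the range of the EDC libraries.

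**Figure D2:**
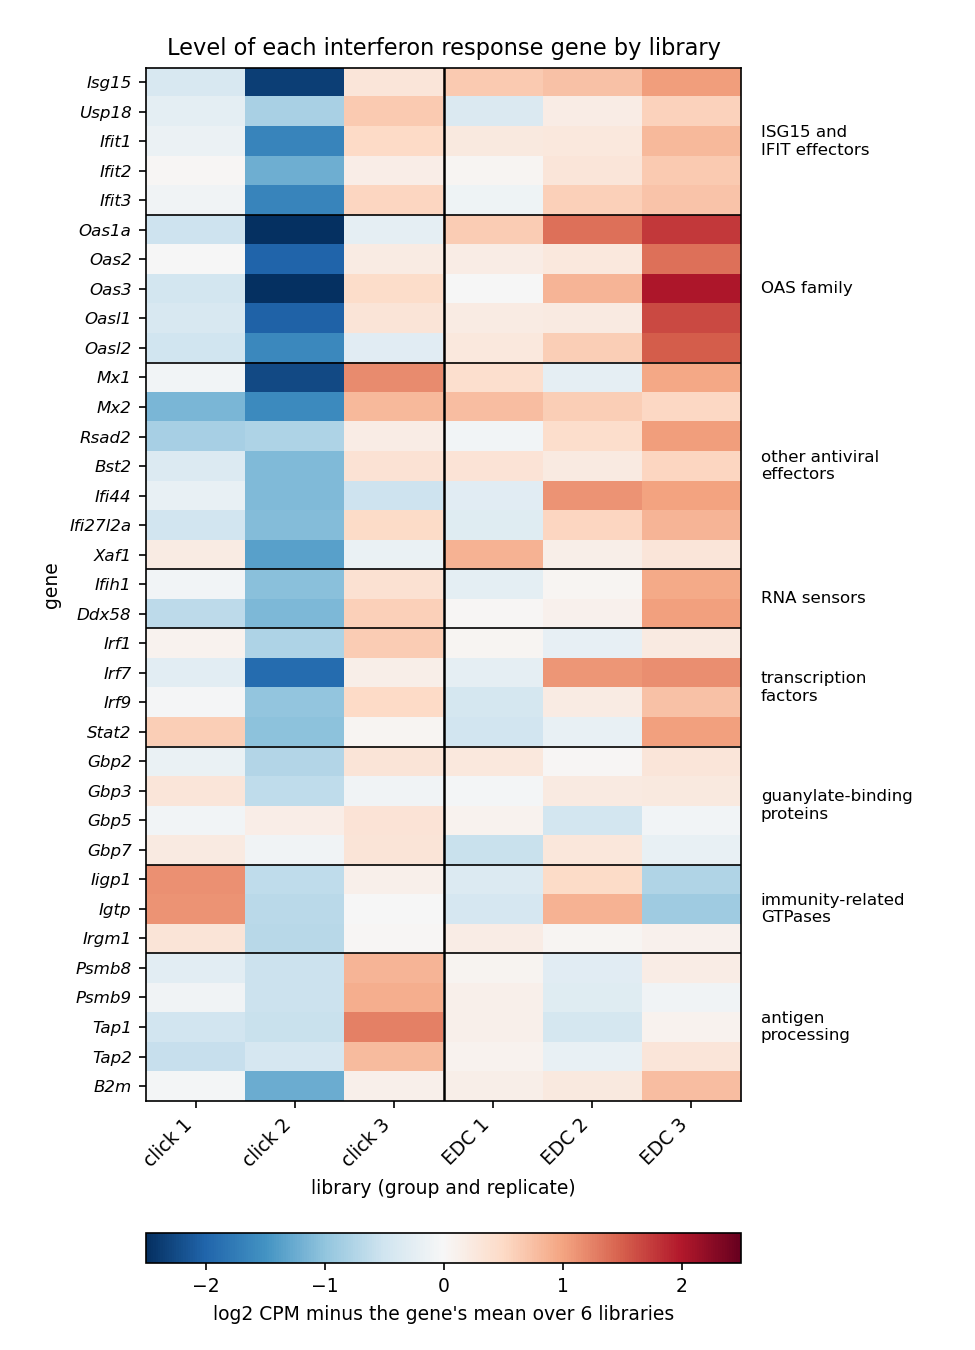
Level of each of the 35 genes in each library, as log2 CPM (prior count 2) minus the mean of that gene over the 6 libraries; rows are genes grouped by role, columns are libraries. Click replicate 2 is the lowest library for 29 of the 35 genes, and EDC replicate 3 the highest for 18 and click replicate 3 for 11.

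The ubiquitin-like modifier Isg15, its protease and the IFIT proteins, which bind foreign RNA, were lower by less. All 5 were below the EDC level with a median of -0.58. Isg15 (ENSMUSG00000035692.6, chr4:156199424-156200818, minus strand) stood at 3.55, 0.874 and 5.80 CPM in click and at 7.42, 7.78 and 9.67 CPM in EDC, with no overlap. Its log2 fold change was -1.28 (SE 0.60, edgeR adjusted p = 0.347). Usp18, which removes Isg15 from proteins and damps the type I receptor, gave -0.20 (SE 0.44). Its click libraries stood at 4.06, 2.73 and 7.62 CPM and its EDC libraries at 3.78, 5.53 and 7.23, so that the highest library was a click one. Isg15 and Usp18, which work on the same modification, thus differed in size of difference, and that gap was not tested.

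Ifit1, Ifit2 and Ifit3, which lie within 99316 bases of chromosome 19, gave -0.65 (SE 0.51), -0.57 (SE 0.39) and -0.58 (SE 0.52). Ifit3 stood at 12.02, 4.01 and 18.6 CPM in click and at 11.8, 19.2 and 21.0 in EDC. Click replicates 1 and 3 lay within the EDC range and click replicate 2 below it. Ifit3 shares 51.24% of its 50-base words with its copy Ifit3b, which gave -0.09 (SE 0.47), so both values are uncertain.

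Other antiviral effectors were lower in 7 of 7, with a median of -0.79. Ifi44 (ENSMUSG00000028037.13, chr3:151730922-151749960, minus strand), an interferon-induced GTP-binding protein, stood at 3.91, 2.04 and 3.09 CPM in click and at 3.66, 9.77 and 8.98 CPM in EDC. EDC replicate 1 lay inside the click range. The log2 fold change was -1.31 (SE 0.44), with an unadjusted edgeR p of 0.0201 and an adjusted p of 0.298. Rsad2, or viperin, which makes a chain-terminating nucleotide, stood at 3.59, 3.72 and 7.24 CPM against 6.12, 8.72 and 13.2 (-0.95, SE 0.40, edgeR adjusted p = 0.329). Bst2, or tetherin, which holds budding virus at the cell surface, stood at 17.6, 10.3 and 28.7 CPM against 28.2, 26.0 and 32.1 (-0.61, SE 0.36). In both, click replicate 3 reached the EDC range.

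Xaf1, a factor that promotes cell death, gave -0.79 (SE 0.42), and Ifi27l2a, a small mitochondrial protein, gave -0.65 (SE 0.46). The Mx GTPases block virus entry and replication in many species, and laboratory strains such as C57BL/6 are known to carry defective alleles of both. Their mRNA was scarce. Mx1 gave -0.27 (SE 0.79), with its highest library in click, and Mx2, annotated as a polymorphic pseudogene, gave -0.89 (SE 0.69).

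Both RNA sensors were lower, with a median of -0.57, and so were 3 of the 4 transcription factors, with a median of -0.28. Ddx58, which encodes RIG-I, stood at 6.66, 4.77 and 15.9 CPM in click and at 10.7, 11.3 and 21.2 in EDC (-0.66, SE 0.50), and Ifih1, which encodes MDA5, gave -0.47 (SE 0.44). Irf7, the factor that amplifies type I interferon production, stood at 9.63, 3.02 and 12.8 CPM against 9.85, 24.9 and 26.0. EDC replicates 2 and 3 lay above the rest, and EDC replicate 1 lay with click replicates 1 and 3. Its log2 fold change was -1.25 (SE 0.58, edgeR adjusted p = 0.345). Irf9 and Stat2, the DNA-binding and activating parts of the type I complex, gave -0.30 (SE 0.44) and -0.26 (SE 0.53). Irf1, the factor induced by both interferons, was level at 0.06 (SE 0.35). It stood at 19.7, 10.7 and 28.6 CPM in click and at 19.1, 15.9 and 21.6 in EDC, with the click libraries both lowest and highest.

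The 4 guanylate-binding proteins, GTPases that coat pathogen vacuoles, split evenly. They lie on chromosome 3. Gbp2 gave -0.34 (SE 0.28) and Gbp3 -0.23 (SE 0.26), while Gbp5, which also promotes inflammasome assembly, gave 0.29 (SE 0.24) and Gbp7 0.28 (SE 0.26). Gbp5 stood at 8.33, 9.69 and 11.1 CPM in click and at 9.25, 6.28 and 8.22 in EDC. Click replicate 2 was the lowest library for Gbp2 and Gbp3, at 11.8 and 11.2 CPM, but not for Gbp5 and Gbp7, which were lowest in EDC replicates 2 and 1. These standard errors, at most 0.28, were among the smallest of the members.

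The immunity-related GTPases, which attack the vacuoles of intracellular parasites in mice, varied within the groups more than between them. Iigp1 stood at 112.6, 32.9 and 55.9 CPM in click and at 40.2, 71.3 and 30.5 in EDC. Click replicate 1 and EDC replicate 2 were the highest library of their group. Igtp showed the same order, with 66.3, 18.9 and 30.3 CPM in click and 22.7, 55.8 and 16.3 in EDC. Their log2 fold changes were 0.50 (SE 0.50, edgeR adjusted p = 0.622) and 0.29 (SE 0.59, edgeR adjusted p = 0.826). Irgm1, which keeps the effector GTPases off host membranes, was steadier, at 41.3, 20.6 and 33.7 against 37.8, 34.5 and 35.7 CPM (-0.18, SE 0.26).

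The 5 antigen processing genes, B2m included, had a median of 0.14. In 4 of them click replicate 3 was the highest library, and in B2m it was EDC replicate 3. Tap1, a subunit of the peptide transporter, stood at 7.82, 7.39 and 26.0 CPM in click and at 11.9, 8.05 and 11.5 in EDC (log2 fold change 0.39, SE 0.51, edgeR adjusted p = 0.716). Its partner subunit Tap2 stood at 11.5, 12.8 and 29.8 CPM against 18.2, 15.1 and 21.1 (-0.01, SE 0.39). Both had their highest level in click replicate 3 and their lowest levels in the other click libraries. The immunoproteasome subunits Psmb8 and Psmb9 gave 0.14 (SE 0.38) and 0.31 (SE 0.39), again with click replicate 3 highest. Without that library, Tap1, Psmb8 and Psmb9 turned to -0.46, -0.40 and -0.21. These 4 genes lie within 34335 bases of chromosome 17, and exons of Psmb9 and Tap1 overlap on opposite strands by 212 bases, where reads cannot be assigned without strand.

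B2m (ENSMUSG00000060802.8, chr2:122147686-122153083, plus strand) went with the type I targets. It stood at 400.5, 174 and 449.5 CPM in click and at 457, 490.5 and 702 CPM in EDC, and the groups did not overlap. Its log2 fold change was -0.69 (SE 0.39, edgeR adjusted p = 0.408). Of the 35 members, 4 had groups that did not overlap, all lower in click (Oas1a, Oasl2, Isg15 and B2m). That is 11.4% of the members against 12.4% of all genes, and no higher member did so against 9.84% of all genes. Per kilobase of annotated exon, B2m was also the most abundant member over the 6 libraries, at 518 CPM per kilobase. Ifi27l2a at 37.7 and Bst2 at 26.4 followed, and Mx2 at 0.369 was the scarcest.

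**Figure D3:**
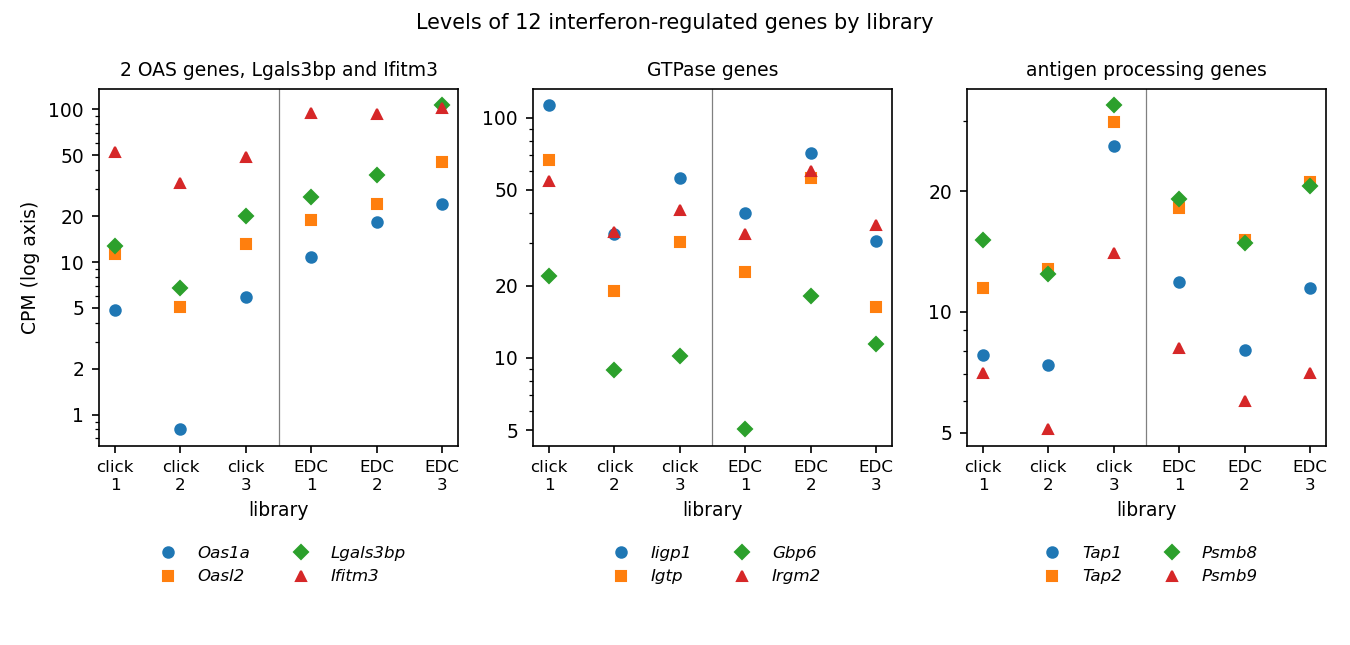
Level in CPM (log axis) of 12 interferon-regulated genes in each library, for comparing libraries within a gene, not genes. Oas1a, Oasl2, Lgals3bp and Ifitm3 are lower in every click library than in every EDC library. They were named for small p-values in this same comparison, so such separation was likely. Of the 22 type I members, 3 separate in this way, as do 12.4% of all genes. Iigp1, Igtp, Gbp6 and Irgm2 are highest in click replicate 1 and EDC replicate 2. Gbp6 and Irgm2 were picked after their values were seen, and Igtp shares 11.77% of its 50-base words with Irgm2. Other GTPase genes differ: Gbp4 and Tgtp1, not shown, are highest in click replicates 2 and 3. Tap1, Tap2, Psmb8 and Psmb9 are highest in click replicate 3.

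Set against each other within a library, the 2 classes separated the groups. A class score was taken as the mean over its genes of log2 CPM, centred on each gene's mean. The type I score was -0.27, -1.57 and 0.30 in click against 0.10, 0.43 and 1.01 in EDC. Click replicate 3 lay above EDC replicate 1, so these scores overlapped. The interferon-gamma score was 0.12, -0.55 and 0.41 in click and -0.02, 0.04 and 0.00 in EDC, with an SD of 0.50 among click libraries and 0.034 among EDC libraries. Its mean in click minus its mean in EDC was -0.01, of opposite sign to the median fold change of the class. The type I score minus the interferon-gamma score was -0.39, -1.02 and -0.11 in click and 0.12, 0.39 and 1.01 in EDC. The highest click value, -0.11, lay below the lowest EDC value, 0.12, with SDs of 0.47 and 0.46 (n = 3). Such a lack of overlap is not rare here. Of single genes tested, 12.4% were lower in click without overlap and 9.84% higher. The centring sets the 2 group means at equal distances from 0, at -0.51 and 0.51. As the genes were chosen with results of these data known, no test was made of these scores.

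**Figure D4:**
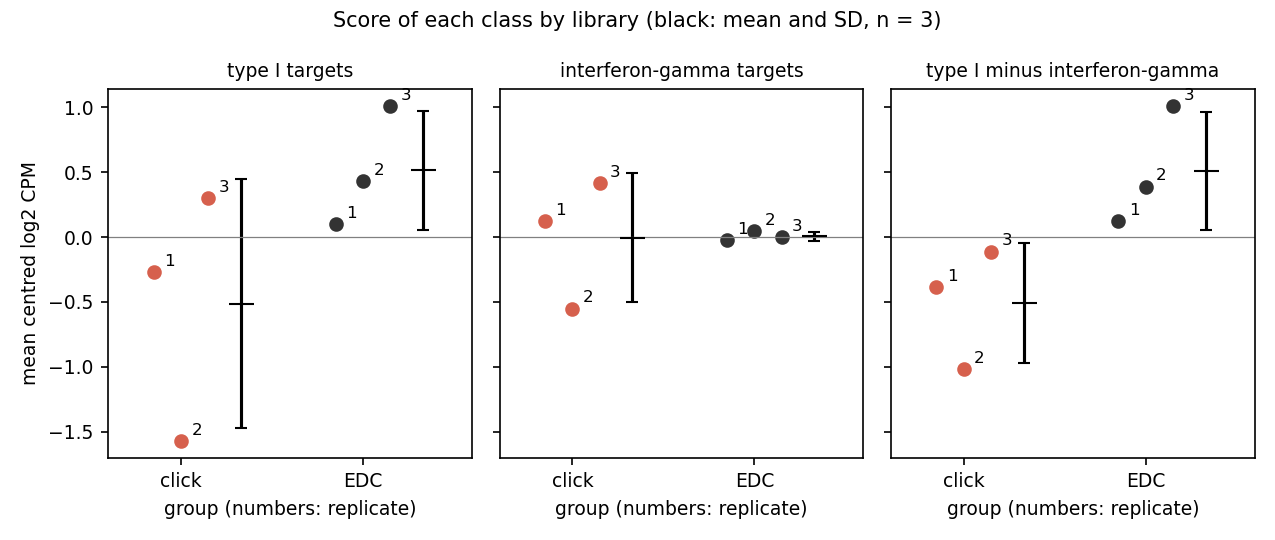
Mean centred log2 CPM of the type I targets, of the interferon-gamma targets and of their difference in each library; points are libraries with their replicate number, bars are mean and SD of 3. The difference runs from -1.02 to -0.11 in click and from 0.12 to 1.01 in EDC, while the class scores alone overlap between groups; the place of 0 is set by the centring.

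The size of the type I difference depended on which animals were kept. Click replicate 2 was the lowest library for 21 of the 22 type I targets and EDC replicate 3 the highest for 17. Without click replicate 2 the type I median was -0.44 and 19 of 22 were lower, and without EDC replicate 3 it was -0.54 and 18 were lower. The largest move came from click replicate 3. Without it the median was -1.31, and 14 members were lower at an unadjusted edgeR p under 0.05, where the share of all genes also went up, to 12.5%. The interferon-gamma median was -0.23 without click replicate 3. The type I median minus the interferon-gamma median was -0.94 and lay between -1.08 and -0.71 in all 16 alternatives.

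Interferon transcripts themselves were at the edge of detection. Of 10 ligand genes, 7 had 0 reads in all 6 libraries, among them Ifnb1, which encodes interferon beta. A count of 0 allows a level of up to 0.0597 to 0.109 CPM per library (3 reads, counting error only). Ifng reads numbered 0, 0 and 6 in click but 13, 3 and 10 in EDC, too few to test. No ligand gene passed the filter on low counts.

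Among receptors and kinases, 8 were tested and 5 were lower. Of these, 2 had an unadjusted edgeR p under 0.05, where 8.0% of all genes were lower at that p. Ifnar2, a type I receptor chain, stood at 10.6, 5.83 and 14.9 CPM in click and at 23.3, 14.9 and 31.7 in EDC. The groups touched, as EDC replicate 2 lay just above click replicate 3. Its log2 fold change was -1.16 (SE 0.41, edgeR adjusted p = 0.298). Il10rb, shared by the receptors for interferon lambda and interleukin 10, gave -1.29 (SE 0.46, edgeR adjusted p = 0.298) and Ifnar1 -0.68 (SE 0.30). Ifngr2, a chain of the interferon-gamma receptor, lay the other way, at 126, 110.7 and 89.4 CPM in click against 78.1, 87.0 and 84.5 in EDC (0.39, SE 0.19, edgeR adjusted p = 0.367). No receptor or kinase passed the adjusted threshold.

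The feedback inhibitors Socs1 and Socs3 lay on opposite sides, and neither passed the adjusted threshold. Socs1, a brake on the kinases of the interferon receptors, stood at 1.70, 0.838 and 1.09 CPM against 0.618, 0.637 and 0.577. Its log2 fold change was 0.98 (SE 0.46, edgeR adjusted p = 0.3455), from only 23 to 47 reads per library. Socs3, a brake on cytokine receptors of the interleukin 6 type, stood at 9.78, 11.5 and 16.6 CPM against 24.6, 13.4 and 38.0. Its log2 fold change was -1.003 (SE 0.40, edgeR adjusted p = 0.313). Of 12 factors and brakes tested, 8 were lower, and 1 of these, Socs3, had an unadjusted edgeR p under 0.05. Of all genes, 8.0% were lower at that p. Of 15 sensors and adaptors, 14 were lower and none had an unadjusted edgeR p under 0.05. Examples are Trim25, a ligase that activates RIG-I (-0.87, SE 0.37), Ticam1, the adaptor of Tlr3 (-0.71, SE 0.31), and Myd88, the adaptor of Tlr7 and Tlr9 (-0.77, SE 0.36).

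Further targets of each interferon, outside the 35, were counted in the same way. These lists were also drawn up with earlier results of these data known, so they are not an independent check. Of 33 other type I targets tested, 27 were lower with a median of -0.52, and 5 were lower at an unadjusted edgeR p under 0.05 (15.2%, where 8.0% of all genes were). Ifitm3, a membrane protein that blocks virus fusion, stood at 52.5, 32.9 and 48.7 CPM in click and at 94.1, 93.8 and 102 CPM in EDC. The EDC libraries were close together and all above the click libraries. Its log2 fold change was -1.11 (SE 0.22, edgeR adjusted p = 0.298; DESeq2 adjusted p = 0.00203). Ifi204, a DNA-sensing protein of myeloid cells, gave -2.16 (SE 0.59), and Lgals3bp, a secreted glycoprotein that macrophages also make, gave -2.10 (SE 0.62). DESeq2 called 4 of the 33 lower, namely Ifitm3, Oas1g, Ifi204 and Lgals3bp, beside 2.28% of all genes.

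Of 21 other interferon-gamma targets tested, 14 were higher with a median of 0.12. Of these, 4 were higher at an unadjusted edgeR p under 0.05 (19.0%, where 7.22% of all genes were), and none was lower. Gbp4 stood at 16.3, 19.5 and 18.7 CPM in click and at 9.50, 8.11 and 10.2 CPM in EDC. The click libraries lay close together and above the EDC libraries. Its log2 fold change was 0.97 (SE 0.19, edgeR adjusted p = 0.298; DESeq2 adjusted p = 0.00364). Tgtp1, a GTPase of the same family as Iigp1, stood at 15.3, 15.8 and 20.3 CPM against 8.63, 11.2 and 7.13 (0.93, SE 0.24). Its near-identical copy Tgtp2 gave 0.70 (SE 0.24), and reads may be split between the copies. Gbp9 gave 0.61 (SE 0.23). The annotated spans of Gbp4 (chr5:105115767-105139586) and Gbp9 (chr5:105077630-105139539) overlap on the minus strand. Whether they share reads was not tested, so these 4 genes may not be separate signals. DESeq2 called 2 of the 21 higher, Gbp4 and Tgtp1, beside 1.57% of all genes. No gene of either list passed the edgeR threshold.

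Markers of macrophages, neutrophils and fibroblasts lay lower in click, as the type I targets did. Most lymphocyte and dendritic cell markers had a positive log2 fold change, but their sums in click replicate 1 lay within or below the EDC range. The 10 macrophage markers summed to 1126, 157 and 993 CPM in click and to 2156, 1679 and 4042 CPM in EDC. Click replicate 2 was again lowest and EDC replicate 3 highest, and the groups did not overlap. Of the 10, 9 were lower in click, with a median of -1.90, and none was at 0 in any library. At an unadjusted edgeR p under 0.05, 6 of them were lower, where 8.0% of all genes were. Several type I targets tested here, such as Ifi204 and Lgals3bp, are also known from macrophages. Fibroblast markers summed to 721 to 4540 CPM in click and 5065 to 7986 CPM in EDC, and 6 of 6 were lower with a median of -1.16. Neutrophil markers summed to 6.20 to 12.7 CPM in click and 10.5 to 164 CPM in EDC. All 5 tested were lower, of which 3 had an unadjusted edgeR p under 0.05, with a median of -3.84, and Ly6g was at 0 in all click libraries and in EDC replicate 2. Endothelial markers summed to 188 to 221 CPM in all 6 libraries, and 4 of 6 were lower with a median of -0.06. The part of these cells in the interferon result was not tested.

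Lymphocyte markers marked out click replicate 3, the library with the highest antigen processing genes. T and NK cell markers summed to 10.1, 30.1 and 186 CPM in click and to 22.2, 13.2 and 17.9 CPM in EDC, so click replicate 1 was the lowest library. Of 9 tested, 8 were higher in click, 4 at an unadjusted edgeR p under 0.05, with a median of 1.48. Of all genes, 7.22% were higher at that p. B and plasma cell markers summed to 163 CPM there, 73.4 in click replicate 2, 89.1 in EDC replicate 1 and 3.76 to 11.2 CPM in the rest. Of 5 tested, 4 were higher, 3 at an unadjusted edgeR p under 0.05, with a median of 4.15. Plasmacytoid dendritic cells are known for making much type I interferon. Of their 6 markers 5 were higher, 4 at an unadjusted edgeR p under 0.05, with a median of 2.74, and the sums were 9.85, 26.3 and 54.0 CPM in click against 8.45, 8.47 and 33.3 in EDC. Siglech had 0, 12 and 136 reads in click against 10, 2 and 15 in EDC. Ly6d and Spib, which B cells also express, were highest in the same click library, and Tcf4 was highest in EDC replicate 3, at 31.9 CPM. Of 6 conventional dendritic cell markers 5 were higher, 1 at an unadjusted edgeR p under 0.05. Their sums overlapped, at 8.8, 14.2 and 42.5 CPM in click against 11.1, 7.08 and 8.18 in EDC. The part of these cells in the levels of Tap1, Tap2, Psmb8 and Psmb9 was not tested.

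**Figure D5:**
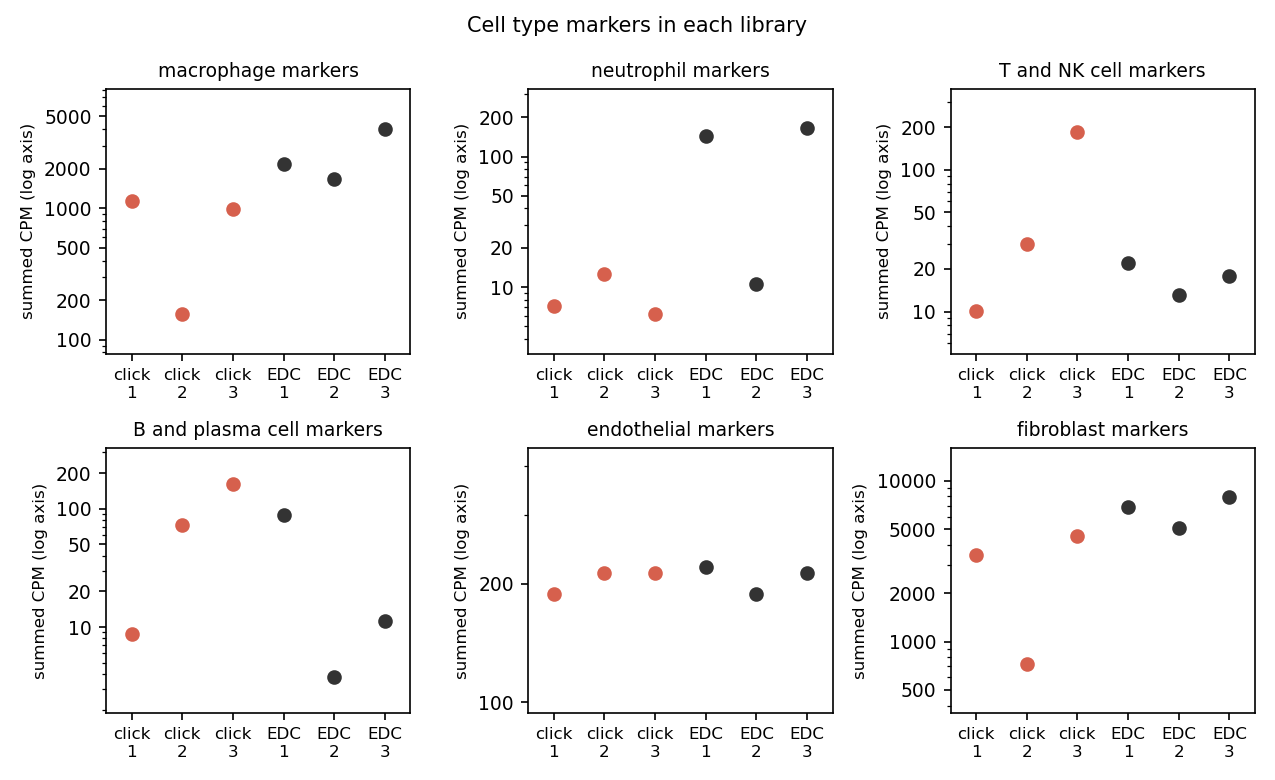
Summed CPM (log axis) of the markers of 6 cell types in each library, click in red and EDC in dark grey. Macrophage and fibroblast markers are lower in every click library than in every EDC library, T and NK cell markers stand out in click replicate 3, and endothelial markers are level across the 6 libraries.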

How the data were processed

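The authors deposited raw read counts, whole numbers per gene that they had not normalised, with a column for each of the 6 libraries and 0 columns without a sample. The submitters' processing notes name mm10 as the build. Which aligner, counting program, annotation and strand setting were used is not stated in the labels. Of 55335 lines, 3225 without a symbol (0.0631% to 0.0996% of reads) were left out. Libraries of each pair differed far beyond sampling noise. With few animals, each p-value sets the difference between groups against a spread estimated from these libraries alone.

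The whole table was fitted with edgeR 4.0.16 in R 4.3.3 (TMM, default expression filter by group, robust quasi-likelihood F test, two-sided, no covariate), with Benjamini-Hochberg adjustment over 15797 genes. The code was tested on simulated counts with the same dispersion for every gene, which does not show its power in these libraries. An SE is the log2 fold change divided by the square root of F. Alternatives were other scalings and filters, DESeq2 1.42.0, limma-voom (limma 3.58.1), covariates and leaving out each library. Annotation was GENCODE M21, and 50-base words were compared with its transcripts. Genes, lists and the naming rule (all members; per pathway list up to 4 genes with the smallest p, and Ifng and Ifnb1, with 1 further gene not reported here) were chosen with earlier results of these data known. Named after their values were seen were Oas1b, Ifit3b, Gbp6 and Irgm2, and so were the members given by library outside the rule (the smallest p of each role, p under 0.05, the highest level per length). CPM are named reads scaled by TMM library sizes.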

Additional observations from a re-analysis of the deposited data

How the results depend on the processing

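The type I median was below 0 in all 16 alternatives, and 18 of the 22 type I targets were lower in each of them. The exceptions, Usp18, Mx1, Irf9 and Stat2, turned only when a library was left out. Same-numbered libraries of the groups had deviations correlated at -0.047, 0.193 and 0.279, and differently numbered ones at -0.296 to 0.088. Deviations within a group of 3 are tied to each other, so these values cannot tell whether the numbers pair the animals. With the replicate block, 10 members had an unadjusted p under 0.05, all lower. The share of all genes lower at that p was 12.1%, against 8.0% without the block. The adjusted threshold was passed by 0 members and by 0 of all genes with the block.

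Members lower at an unadjusted p under 0.05 numbered 7 with library totals (15.8% of all genes), 7 with DESeq2 (10.2%), 5 with the mt-Atp6 read class covariate (5.68%; libraries are classed by their ratio of mt-Atp6 to Gm10925 reads), and 2 to 14 when a library was left out (3.25% to 12.5%). DESeq2 called 2 members. Members lower with no overlap numbered 8 with library totals (23.6% of all genes) and 4 to 18 without a library (14.9% to 24.4%), where fewer libraries make overlap rarer for every gene. Library totals moved the median of all genes from 0.02 to -0.45. The interferon-gamma median was then -0.21, which is 0.24 above all genes. It was -0.037 with the mt-Atp6 read class and -0.23 to 0.31 without a library. The cause was not tested.

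With library totals, Irf1 was at -0.36, Gbp5 -0.17, Gbp7 -0.15, Igtp -0.19, Psmb8 -0.24, Psmb9 -0.068 and the median of the other interferon-gamma targets -0.29. With the mt-Atp6 read class, Irf1 was at -0.16, Igtp -0.13 and that median -0.12. Irf1 was at -0.020 with limma-voom and -0.036 with the replicate block, and Tap2 at 0.0018 with upper-quartile factors.

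Leaving out 1 library gave ranges of -0.70 to 0.046 for Usp18, -1.29 to 0.18 for Mx1, -0.67 to 0.029 for Irf9, -0.70 to 0.35 for Stat2, and -0.31 to 0.31 for Irf1. Among interferon-gamma targets it gave -0.10 to 0.88 for Iigp1, -0.36 to 0.94 for Igtp, -0.43 to 0.020 for Irgm1, -0.40 to 0.36 for Psmb8, -0.21 to 0.54 for Psmb9, -0.46 to 0.65 for Tap1, -0.58 to 0.21 for Tap2 and -0.086 to 0.32 for the median of the other targets. Without click replicate 3, 14 members were lower at an unadjusted p under 0.05 (12.5% of all genes) and 18 with no overlap (24.4%). Without EDC replicate 1 these were 5 (5.07%) and 12 (15.7%). The medians of other targets were added after the data were seen.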
